A study of Mus musculus with 14 samples.

Results

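The hair follicle keratins and keratin-associated proteins were followed through a set of 12 mammary tumours. The genes were taken as every probe whose annotated symbol begins with Krtap, or is Krt25 to Krt28, Krt31 to Krt36, Krt71 to Krt75 or Krt81 to Krt86, under a current or former symbol of the same gene. The array held 52 such genes, each with 1 probe, of 16879 named genes on 22575 probes. They comprised 5 keratins of the inner root sheath (Krt25, Krt26, Krt27, Krt28 and Krt71), the companion layer keratin Krt75, 10 keratins of the hair shaft (Krt31, Krt32, Krt33a, Krt33b, Krt34, Krt35, Krt36, Krt82, Krt84 and Krt86) and 36 keratin-associated proteins. Krt72, Krt73, Krt74, Krt81, Krt83, Krt85 and a number of Krtap genes were not analysed here.

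All 12 tumours were labelled as mammary tumours of Brg1+/- mice, which carry 1 intact copy of Brg1 (Smarca4), the ATPase of SWI/SNF chromatin remodelling complexes. Tumour RNA was labelled with Cy5 and hybridised on 2-colour arrays together with Cy3-labelled RNA named Mouse Reference, the same for all, giving 14 arrays, since T172 and T284 had a second array labelled as a biological replicate. The values are deposited log2 ratios of tumour over reference. The tumour names all carry the prefix MIXED, which the labels do not explain. The labels used here spell out no strain, age, treatment or driver of the tumours, nor whether each came from a separate animal, and no normal mammary gland, skin or Brg1 wild-type tumour stands among the samples. The reference RNA is therefore not a control tissue, and a positive ratio says only that a tumour held more of an RNA than the reference did. The p-values measure only the spread between these samples.

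The hair follicle is a skin appendage built of concentric epithelial layers. The inner root sheath makes its own type I keratins (Krt25 to Krt28) and type II keratins (Krt71 to Krt74), the companion layer makes Krt75, and the cortex and cuticle of the shaft make the hair keratins, which pair as type I and type II chains. The keratin-associated proteins are small, cysteine-rich or glycine- and tyrosine-rich proteins that crosslink the keratin filaments of the shaft. The mammary gland shares its origin as a skin appendage with the follicle, but these genes are used as markers of the follicle and not of mammary epithelium.

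Between 22501 and 22566 of the 22575 probes had a value on each array, and 1 of 728 values of the hair genes was missing (Krtap4-13, on the second T172 array). Of 10 mammary epithelial markers, 5 to 10 were above the reference in each tumour other than T176, where 2 were. The basal keratin Krt5 was above it in 4 tumours, with a median of -1.43. Epcam lay between 0.70 and 3.18 in the tumours other than T176, and at -4.09 in T176, where the keratins Krt8 (-3.53) and Krt18 (-4.25) were also low. Smarca4 itself averaged -0.60 ± 0.35 on the log2 scale (SD, n = 12), from -1.08 in T284 to 0.08 in T176. This value checks no label, because all tumours carry the same genotype.

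One tumour, T372, stood highest for nearly the whole gene family. It had the highest ratio of the 12 tumours for 46 of the 52 genes, all 16 keratins and 30 of the 36 keratin-associated proteins among them, where 5.13% of all genes had their highest value in T372. Its ratio was at least 2-fold above the mean of the other 11 tumours for 39 of the 52 hair genes, against 4.48% of all genes tested. The median difference between T372 and the other 11 was 2.21 on the log2 scale for the hair genes and 0.01 over all genes. A pair of other tumours stood above most of the rest. T2023 was at least 2-fold above the other 11 for 21 hair genes (4.49% of all genes) with a median difference of 0.78, and T160 for 14 (1.26% of all genes) with a median difference of 0.42. In the other 9 tumours the median difference lay between -0.64 (T172) and -0.16 (T55). In whole tumour pieces, more cells of a type and more RNA per cell cannot be told apart.

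**Figure D1:**
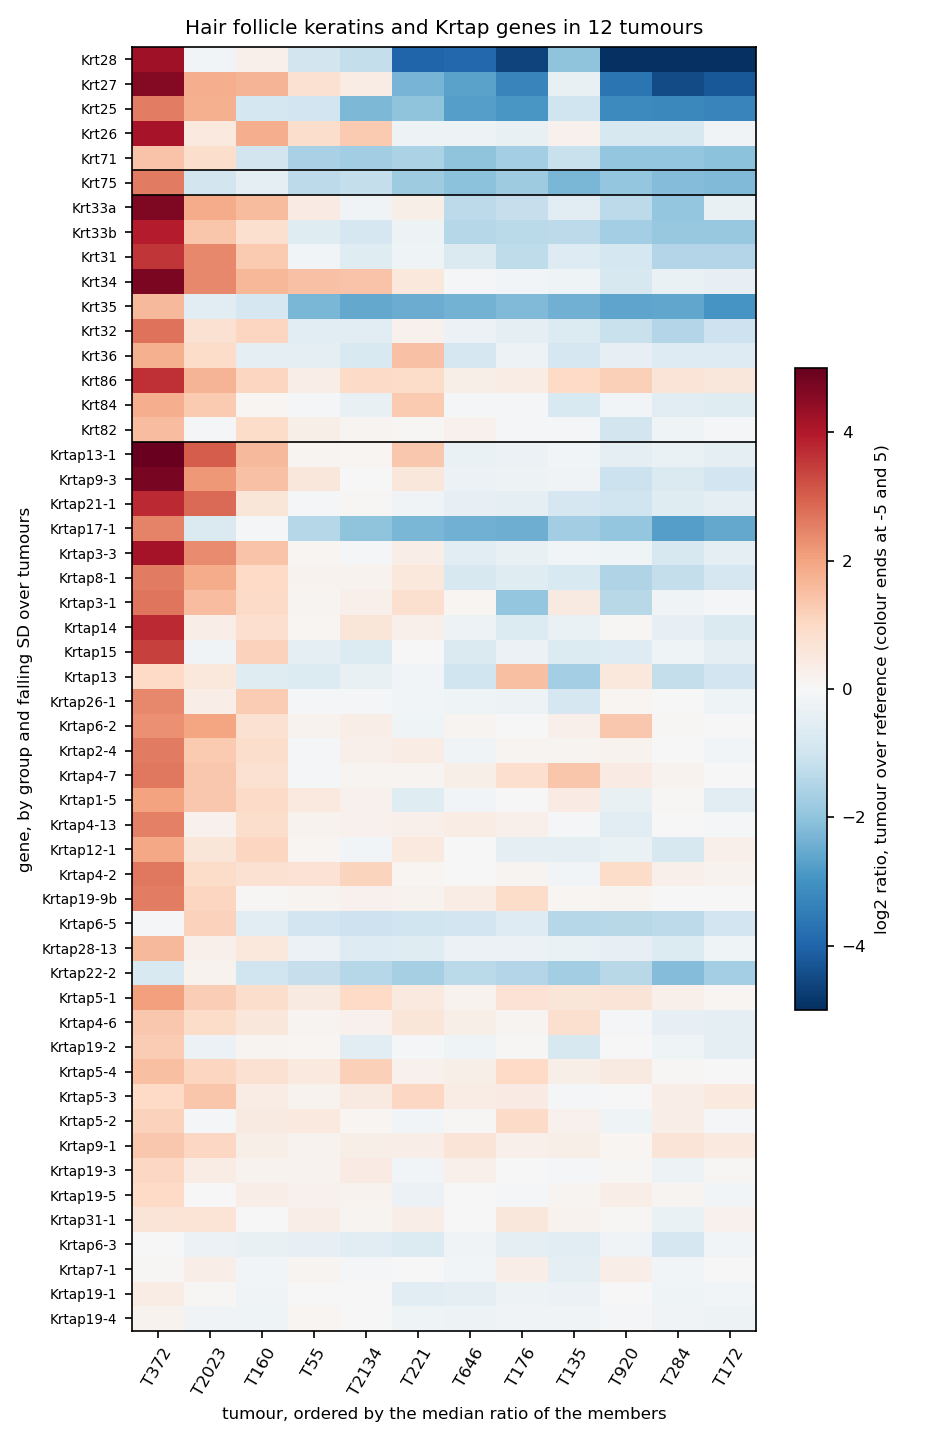
Log2 ratios of tumour over reference for the 52 genes, one row each, in the 12 tumours, one column each, with the colour giving the ratio. The T372 column is the highest for 46 of the 52 genes, and the inner root sheath keratins Krt27 and Krt28 show the widest range of colours along a row.

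**Figure D2:**
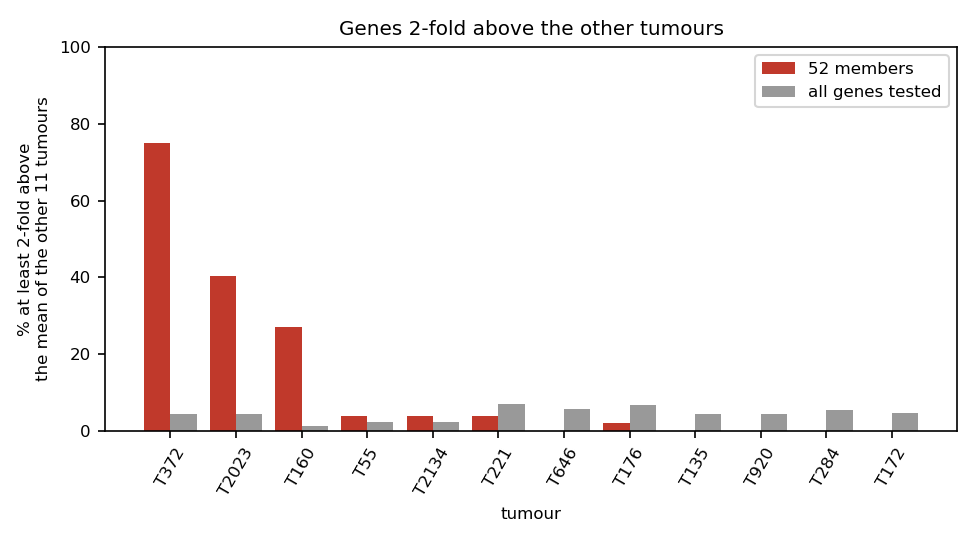
Percentage of genes whose log2 ratio in the tumour on the x axis was at least 2-fold above the mean of the other 11 tumours, for the 52 hair genes and for all genes tested. The hair genes reach 39 of 52 in T372, 21 of 52 in T2023 and 14 of 52 in T160, and no more than 2 of 52 in any of the other 9 tumours.

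Whether the genes differed between tumours by more than between arrays of 1 tumour was asked with limma's moderated F-test over the 12 tumours, fitted on all genes. This test takes its spread within a tumour solely from T172 and T284, which have 2 arrays each, and both are tumours with low ratios of these genes. At a Benjamini-Hochberg adjusted p under 0.05, 34 of the 52 hair genes differed between tumours (65.4%), against 18.3% of all genes tested. All 5 inner root sheath keratins, Krt75, 9 of the 10 shaft keratins and 19 of the 36 keratin-associated proteins passed. The median SD over tumours was 1.94 for the inner root sheath keratins, 1.23 for the shaft keratins and 0.74 for the keratin-associated proteins, and 0.39 over all genes. Without T372, 22 of the 34 calls were kept, where 18.7% of all genes passed. The inner root sheath keratins all still passed, Krt75 did not (adjusted p = 0.0542 by limma's F-test), and the keratin-associated proteins that passed went from 19 to 9. On the second arrays, the median absolute difference from the first was 0.38 for the hair genes in T172 and 0.34 in T284, where all genes gave 0.31 and 0.34.

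The inner root sheath keratins covered the widest range. Krt28, a type I keratin, stood at 4.25 in T372, 0.25 in T160, -0.15 in T2023, -0.91 in T55, -1.19 in T2134 and -2.02 in T135. It stood at -3.92 in T646, -4.02 in T221, -4.62 in T176, -5.46 in T284, -5.48 in T172 and -5.76 in T920. The range was thus graded, with T372 alone clearly above the reference and 6 tumours far below it (SD 3.02, n = 12, adjusted p = 4.9e-05 by limma's F-test). Krt27, its neighbour in the type I cluster, kept nearly the same order. Its ratio was 4.60 in T372, 1.83 in T2023, 1.70 in T160, 0.78 in T55, 0.36 in T2134 and -0.36 in T135, and between -4.49 (T284) and -2.32 (T221) in the remaining 6 (SD 2.89, adjusted p = 5.9e-05).

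Krt25 was high in T372 (2.54) and T2023 (1.76) but not in T160 (-0.87), around a median of -2.14 and down to -3.29 in T172. Krt26 ran in the other order, with 4.12 in T372, 1.81 in T160, 1.31 in T2134 and 0.50 in T2023, around a median of 0.03. Krt71, the type II keratin of the inner root sheath on chromosome 15, was positive in T372 (1.42) and T2023 (0.87) alone and lay between -2.07 and -0.91 in the other 10 tumours. T372 was thus highest for each of the 5, while the order of T2023 and T160 below it changed from gene to gene. All 5 differed between tumours by limma's F-test, with adjusted p from 4.9e-05 to 0.00238. The median Pearson correlation between pairs of the 5 was 0.90 over the 12 tumours and 0.84 over the 11 without T372. The same median was 0.83 and 0.60 for pairs of shaft keratins and 0.66 and 0.39 for pairs of keratin-associated proteins. Over the 9 tumours without T372, T2023 and T160, left out because of their high values, it was 0.84 for the inner root sheath, 0.44 for the shaft and 0.13 for the keratin-associated proteins. The median over pairs of all genes was 0.0 in each case. These are descriptions over ratios that share 1 reference RNA.

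**Figure D3:**
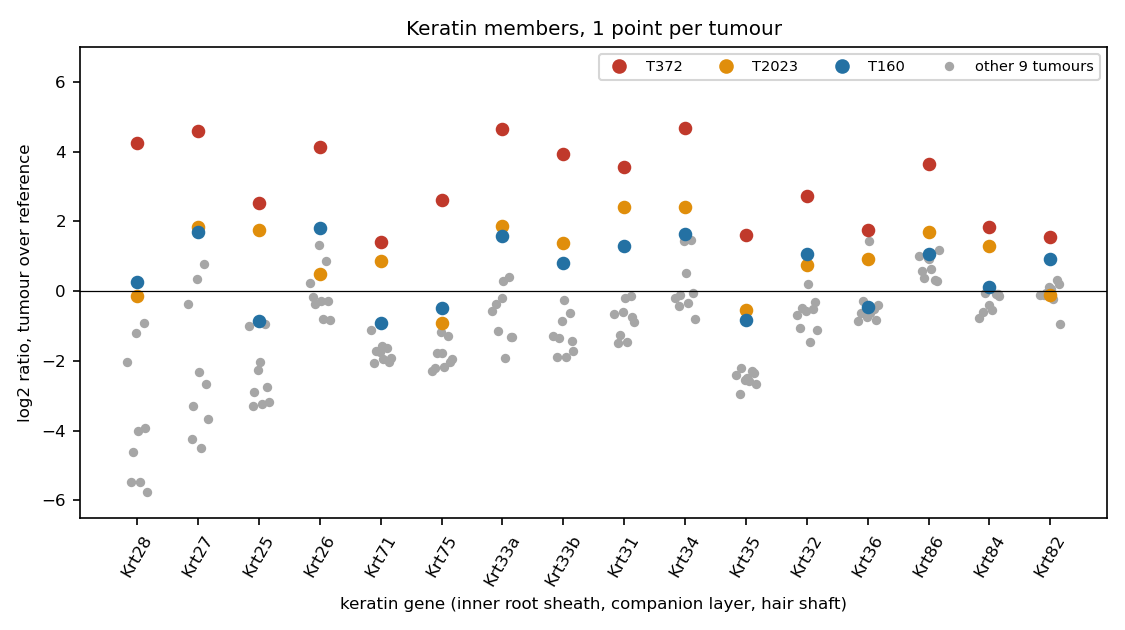
Log2 ratios of tumour over reference of the keratins, with a point for each of the 12 tumours and T372, T2023 and T160 marked. T372 is the highest point for every keratin, with the widest gap to the next tumour for Krt28 (4.0) and Krt75 (3.07).

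Krt75, the companion layer keratin, set T372 apart from the other tumours. It stood at 2.60 in T372 and between -2.30 (T135) and -0.48 (T160) in the other 11, with -0.90 in T2023. T372 was thus 3.07 above the next tumour and the only one above the reference, and of the hair genes only Krt28 had a wider gap (4.0). The difference between T372 and the mean of the other 11 was 4.24 ± 0.58 (SE) on the log2 scale, with an adjusted p of 0.0214 by limma, in a fit that assumes the lone tumour to vary as the other 11 do.

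Among the shaft keratins, the type I genes Krt31, Krt33a, Krt33b and Krt34 were high in 3 tumours in the same order. Krt33a stood at 4.66 in T372, 1.86 in T2023 and 1.59 in T160, around a median of -0.27. Krt34 stood at 4.69, 2.42 and 1.65 in those tumours and at 1.46 in T55, around a median of 0.22. Krt31 (3.57, 2.41 and 1.30, median -0.62) and Krt33b (3.93, 1.39 and 0.82, median -1.07) followed the same order, and all 4 differed between tumours, with adjusted p between 0.000216 and 0.000959 by limma's F-test. Krt35, which is made early in the hair matrix and cortex, was positive in T372 alone (1.62). It was at -0.55 in T2023, -0.83 in T160 and between -2.94 and -2.20 in the other 9 tumours, with T2023 and T160 lying between T372 and the rest. Krt32, a keratin of the hair cuticle, stood at 2.73 in T372, 1.06 in T160 and 0.76 in T2023, around a median of -0.49.

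Krt36 and Krt84 departed from this order, because T221 joined the high tumours. Krt36 was at 1.76 in T372, 1.45 in T221, 0.91 in T2023 and -0.45 in T160. Krt84 was at 1.83 in T372, 1.32 in T221, 1.29 in T2023 and 0.11 in T160. Both belong to keratins also described in nail and tongue epithelium, and both passed the F-test (adjusted p = 0.00901 and 0.0115). Krt86, a type II hair keratin, was above the reference in all 12 tumours, from 0.29 in T646 to 1.69 in T2023, and at 3.64 in T372. Krt82 was the single keratin that missed the threshold, with 1.56 in T372, 0.92 in T160 and a median of 0.00 (adjusted p = 0.0813 by limma's F-test).

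The keratin-associated proteins split into some that followed the keratins and others that varied little. Krtap13-1 had the largest SD (1.70), with 4.94 in T372, 3.04 in T2023, 1.62 in T160 and 1.35 in T221, around a median of -0.03. Krtap9-3 (4.75, 2.15 and 1.47 in T372, T2023 and T160) and Krtap3-3 (4.16, 2.35 and 1.43) had the same order, and both had a median of -0.09. Krtap21-1 was high in T372 (3.74) and T2023 (2.83), with 0.62 in T160 and at most 0.07 elsewhere. Krtap17-1 was instead positive in T372 alone (2.48), with -0.04 in T160, -0.73 in T2023 and a median of -1.97. Krtap8-1 and Krtap3-1 reached 2.58 and 2.67 in T372, followed by 1.86 and 1.53 in T2023. For these 7 genes limma's F-test gave adjusted p between 0.00043 and 0.004, and T372 was highest in each.

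Krtap14, Krtap15 and Krtap4-13 separated T372 from the rest as Krt75 did. Krtap14 stood at 3.74 in T372 and between -0.72 and 0.83 in the other 11, Krtap15 at 3.40 against -0.73 to 1.16, and Krtap4-13 at 2.53 against -0.55 to 0.89. In each of the 3 the highest of the other tumours was T160. Tested against the other 11 tumours with limma over all genes, T372 was higher at an adjusted p under 0.05 for 5 hair genes and 9 genes in all (0.0535% of those tested). The hair genes were Krt75, Krtap14 (3.76 ± 0.50 SE, adjusted p = 0.0214), Krtap15 (3.69 ± 0.53, 0.0296), Krt86 (2.82 ± 0.43, 0.0413) and Krtap4-13 (2.38 ± 0.37, 0.0414). The other 4 were Olfr1174, Rbmxl2, Usp17la and Wnt8a, named here after their values were seen. Larger differences went with no call where the other tumours also varied. For Krt28 it was 7.27 ± 2.11 (adjusted p = 0.83 by limma) and for Krt27 6.09 ± 2.23 (adjusted p = 1). Ranked by size alone, 10 of the 20 largest differences in T372 and 22 of the 100 largest, of 16836 genes, belonged to hair genes. The calls depended on the processing, and 2 of the 5 (Krt75 and Krtap14) passed after quantile normalization or when only the second array of each doubly hybridised tumour was used.

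T2023 and T160 had no hair gene called against the other 11 tumours by limma, and 6 and 0 hair genes were higher there at an unadjusted p under 0.05, where 3.34% and 0.403% of all genes were. The same count in T372 was 44 of 52 hair genes, against 1.63% of all genes. With T372 left out, a fit added after seeing the data, T2023 was higher than the other 10 for Krtap21-1 (3.16 ± 0.47 SE, adjusted p = 0.0482 by limma) and Krtap6-5 (2.19 ± 0.32, 0.0482), where 0.0238% of all genes were called. Krtap6-5 was also 1 of 4 genes whose highest tumour was T2023, at 1.17 with -0.09 in T372 and between -1.43 and -0.53 in the other 10. The other 3 were Krtap22-2 (0.17), Krtap5-3 (1.39) and Krtap31-1 (0.68), and none of the 4 passed the F-test. The adjusted p of Krtap6-5 was 0.0558, and it passed under 11 of 20 alternative settings, quantile normalization among them, and Krtap22-2 under 4. Krtap13 and Krtap7-1 had their highest value in T176, at 1.5 and 0.35. Krtap13 passed the F-test (adjusted p = 0.02 by limma), but not without T176, and Krtap7-1 did not pass (0.849).

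By genomic family, 20 of the 23 hair genes on chromosome 11 differed between tumours (87.0%, against 18.3% of all genes). That chromosome holds the type I keratins and many Krtap genes. On chromosome 16, which holds the glycine- and tyrosine-rich families among others, 9 of 17 did (52.9%). None of the 4 Krtap5 genes on chromosome 7 passed limma's F-test, with 2 at an unadjusted p under 0.05. Even there T372 or T2023 was highest, for example Krtap5-1 at 2.04 in T372 and 1.23 in T2023, with a median of 0.63. Within the Krtap19 family 1 of 6 passed (16.7%), near the 18.3% of all genes. It was Krtap19-9b, with 2.55 in T372 and 1.06 in T2023. Krtap19-4 was the least variable hair gene, from -0.26 to 0.18 (SD 0.14, n = 12), and Krtap19-1, Krtap6-3 and Krtap7-1 had SDs of 0.24 to 0.25. The deposited ratios carry no spot brightness, so a probe near background cannot be told from one whose RNA was equal in tumour and reference. Members of a Krtap family can be near-identical in sequence, so 1 probe may take up signal of several and single members are uncertain. No hair gene was at least 2-fold below the reference in all 12 tumours, where 4.72% of all genes were.

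The promoters of the hair genes were read from RefSeq's mouse annotation (build GRCm38.p6), which held a promoter of 45 of the 52 genes. No promoter was matched for Krtap6-3, Krtap12-1, Krtap9-1, Krt33a, Krt35, Krt86 and Krtap7-1. The letters TATAAA, the core of the TATA box, were searched on the gene's strand within the last 50 bases before the annotated start, a window chosen after the expression values were seen. They were present in 29 of the 45 (64.4%) and in 2.63% of all 32851 promoters of the table. All 5 inner root sheath keratins, 4 of 7 shaft keratins and 20 of 32 keratin-associated proteins had them. Among the latter it was 10 of 11 on chromosome 11 and 7 of 16 on chromosome 16. These counts rest on the exact letters and window. Krtap14, Krtap15, Krtap19-3 and Krtap19-4 on chromosome 16 and Krtap3-3 and Krt36 on chromosome 11 held TATATAAG, which was not counted. In Krtap19-4 these letters began before the searched window. Krtap13-1 on chromosome 16 held TATAAA across the edge of the searched window, so that it was not counted. The letters CTTTGA, a core of the TCF/LEF motif, searched on both strands of the whole 300 bases, were in 13 of the 45 (28.9%) and in 16% of all promoters. A match is a description of the letters, not of a bound site, and a variant of the letters counts as no match. The 60 bases before the start of the 4 neighbouring type I inner root sheath keratins, of 2 shaft keratins and of 2 keratin-associated proteins follow, 5′ to 3′ on the gene's strand, with TATAAA in capitals. These 8 were picked as examples that hold the match. Krt75 and Krtap14, both called higher in T372, do not hold TATAAA and stand last. A gene could thus be highest in T372 with or without these exact letters. Whether such genes lack a TATA box was not tested.
Krt25 (chr11:99322952-99323011, minus strand): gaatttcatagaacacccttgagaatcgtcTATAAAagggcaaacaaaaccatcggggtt
Krt26 (chr11:99337966-99338025, minus strand): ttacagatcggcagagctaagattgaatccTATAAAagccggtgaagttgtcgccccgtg
Krt27 (chr11:99351119-99351178, minus strand): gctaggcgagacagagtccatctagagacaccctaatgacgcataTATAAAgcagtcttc
Krt28 (chr11:99374904-99374963, minus strand): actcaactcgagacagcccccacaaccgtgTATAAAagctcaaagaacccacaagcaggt
Krt31 (chr11:100050552-100050611, minus strand): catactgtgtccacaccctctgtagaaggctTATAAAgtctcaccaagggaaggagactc
Krt34 (chr11:100041555-100041614, minus strand): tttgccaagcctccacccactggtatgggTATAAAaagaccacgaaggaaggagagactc
Krtap9-3 (chr11:99598107-99598166, minus strand): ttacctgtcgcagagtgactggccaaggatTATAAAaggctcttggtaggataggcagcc
Krtap17-1 (chr11:99993995-99994054, minus strand): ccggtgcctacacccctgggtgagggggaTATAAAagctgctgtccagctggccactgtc
Krt75 (chr15:101573905-101573964, minus strand): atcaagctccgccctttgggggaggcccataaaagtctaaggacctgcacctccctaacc
Krtap14 (chr16:88826146-88826205, minus strand): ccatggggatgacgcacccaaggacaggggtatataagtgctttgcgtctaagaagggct
In Krt25, Krt26 and Krt28 the match began 30 bases before the annotated start, in Krt34 and Krtap17-1 31 bases, and in Krt27 15 bases.

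Other gene lists were set beside the hair genes, all chosen with earlier results of these data known. Of 12 other structural genes of the shaft and root sheaths that were measured, 8 differed between tumours by the F-test. For this and the lists below, the share of all genes was 18.3%. Their median difference was 1.53 in T372, 0.98 in T2023, 0.54 in T221 and 0.21 in T160. Padi3, which deiminates follicle proteins such as trichohyalin, stood at 5.01 in T372, 3.14 in T221, 1.68 in T2023 and 1.42 in T160, around a median of -0.01. Crym, a crystallin-related protein made in the follicle, ran from 2.03 in T372 to -5.11 in T172. Mt4, a metallothionein of stratified epithelia, was instead highest in T221 (4.69), with 3.19 in T2023 and 3.16 in T372. Krt17 was highest in T2023 (2.73), with 2.16 in T221, 2.02 in T135 and 1.62 in T372. Of 32 regulators and signals of the follicle, 15 passed the F-test, with a median difference of 0.32 in T221, 0.31 in T372 and 0.25 in T2023. Hoxc13, Foxn1, Dlx3 and Shh, known regulators of follicle growth and hair keratin genes, were picked out after their values were seen. None passed (adjusted p = 0.299, 0.964, 0.7 and 0.987 by limma's F-test), though Hoxc13 and Dlx3 were highest in T372 (0.60 and 0.29). Hoxc13 was there 1.07 above the mean of the other 11. Of the 32 genes, 9 were at least 2-fold above the other 11 tumours in T372 and 9 in T2023. The share of all genes was 4.48% and 4.49%. In T372, 1 of the 32 was at least 2-fold below. T372 was highest for 7 of the 32, where it was highest for 5.13% of all genes. These were Hoxc13, Dlx3, Msx2, Lef1, Prdm1, Ovol1 and Ctsl, of which Msx2, Prdm1, Ovol1 and Ctsl passed the F-test. Lef1, Prdm1 and Ovol1 were 1.98, 1.57 and 1.79 above the mean of the other 11. Msx2, a homeobox factor of the hair matrix, was highest in T372 (2.46). Wnt10a, a Wnt ligand of the follicle, stood at 2.55 in T2023, 2.32 in T221 and 2.22 in T372. Sostdc1, a BMP and Wnt antagonist, was at 3.37 in T2023 and -2.50 in T372. Gata3 stood at 2.37 in T646, 2.33 in T372 and -4.19 in T176.

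Genes of stratified, cornifying epithelium had their highest medians in T2023 and T221, and positive medians in T372. The cornified envelope and granular layer list, of which 23 of 24 genes differed between tumours, had a median difference of 3.46 in T2023, 3.39 in T221, 2.21 in T372 and -0.44 in T160. The stratified keratins, of which 10 of 13 passed, had 1.99, 2.05, 0.63 and -0.20 in the same tumours. In T221, where Rptn had a ratio of 6.08, the inner root sheath keratins had a median difference of -0.85 from the other tumours and the shaft keratins one of 0.03. In T160 the hair shaft keratins had a median difference of 0.99 and the cornified genes one of -0.44. Of 13 sebaceous genes 5 passed, of 10 melanocyte genes 1 (Mitf) and of 12 dermal papilla genes 5, where 18.3% of all genes did. The median differences of these lists in T372 were 0.36, 0.16 and 0.10. At least 2-fold above the other 11 there were 4, 1 and 1 genes of these lists (4.48% of all genes). In the dermal papilla list 1 gene was at least 2-fold below. The 13 skeletal muscle genes, of which 4 passed, had a median difference of -0.03 in T372 and were highest in T55 (1.23). What part RNA of adjoining skin or of other cell types had in the hair gene values was not tested.

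**Figure D4:**
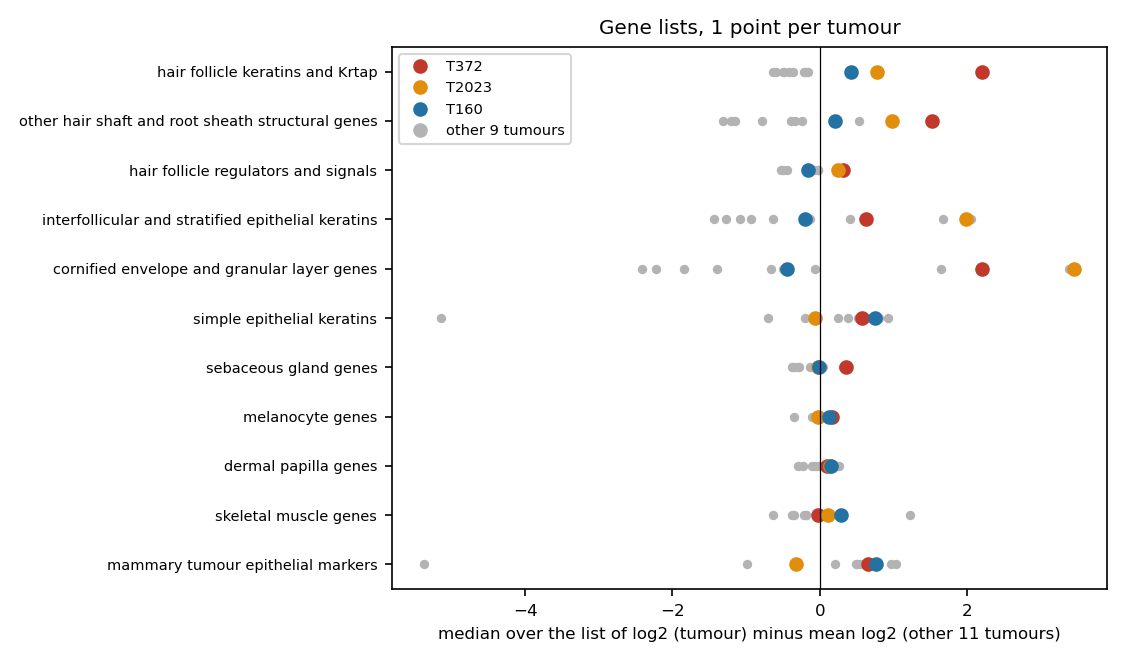
Median difference, on the log2 scale, between each tumour and the other 11 for each gene list. The hair genes peak in T372 at 2.21, while the cornified envelope genes peak in T2023 at 3.46 and T221 at 3.39 and stand at 2.21 in T372.

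Genes outside the hair and stratified keratins were ranked by the Pearson correlation of their ratios with Krt27, Krt28, Krt33a and Krtap13-1 over the 12 tumours, as a description. Crym was nearest to both Krt27 and Krt28 (r = 0.966 with each). Rassf9 came next for both (r = 0.948 and 0.912), within a narrow range of -0.54 to 0.70, and did not pass the F-test (adjusted p = 0.482 by limma). Spink12, a Kazal-type serine protease inhibitor, ranked next for Krt27 at r = 0.905, with 6.39 in T372, 4.42 in T160 and 2.86 in T2023 around a median of 2.29. Padi3 followed Krt33a and Krtap13-1 at r = 0.896 with each, and S100a3, a calcium-binding protein of the hair cuticle, followed Krt28 at 0.906. Slc30a1, a zinc exporter, was nearest to Krtap13-1 (r = 0.972), and Cftr, a chloride channel, to Krt33a (r = 0.929). Slc30a1 varied over a narrow range, from -0.98 to 0.77, and did not pass the F-test (adjusted p = 0.185 by limma).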

How the data were processed

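The 14 arrays of 12 tumours were read from the authors' deposited value table. Its values are log2 ratios of tumour (Cy5) over Mouse Reference (Cy3), per the labels for the dyes and direction, and from the range of the values (-9.19 to 7.42) for the base. The scanner, background correction and normalization were not given in the sources used here, and the values were used without further scaling. Of 22575 probes, 18658 had 1 gene symbol, 30 several and 3887 none. Symbols were updated through RefSeq's table, and probes of a gene were averaged. A probe under 2310057N15Rik, whose link to Krtap13-1 rests on an ambiguous older name, was left out (1.87 in T372, -1.86 to 0.43 on the other arrays). The members and gene lists were chosen with earlier results of these data known.

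The F-test over 12 tumours used limma's moderated variances on 16877 genes with values on at least 12 of 14 arrays. Each gene also needed both arrays of T172 or both of T284. F was computed from the sums of squares, which gave the F of lmFit and eBayes on genes without missing values. Each tumour was also set against the other 11, after averaging the arrays of T172 and T284. P-values were adjusted by Benjamini-Hochberg over all genes, with a threshold of 0.05. Genes described in full were those past the threshold, up to 20 by SD over tumours, with Krt75, Krt35 and those called in 1 tumour. From the lists of structural genes, follicle regulators and cornified genes, the 4 called genes with the largest SD were named. For the other lists this rule was not followed in full. Genes with the highest correlation to Krt27 and to the most variable gene of each group were also listed. Genes outside this rule (Krt36, Krt82, Krt84 and the low-variance or family examples) were chosen after their values were seen. On simulated data of 16535 genes, the F-test called 54 of 100 genes with an SD of 1 over tumours, 98 of 100 with an SD of 2 and 7 of 16335 unchanged ones. T372 against 11 called 54 of 100 genes shifted by 2, 83 of 100 shifted by 4 and 5 of 16335 unchanged. R 4.3.3, limma 3.58.1, Python 3.11.15, numpy 2.4.6 and pandas 2.3.3 were used. Normalization, the averaging of probes, the filter, the prior, the threshold and the tumours and arrays included were varied.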

Additional observations from a re-analysis of the deposited data

How the results depend on the processing

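The number of hair genes that differed between tumours by limma's F-test was 34 (18.3% of all genes passed), and 22 at an adjusted p under 0.01. With 1 tumour or array left out it ran from 22 (without T372) to 38, while the share of all genes ran from 14.9% (without T176) to 23.8% (without the first T172 array). It was 39 after quantile normalization, where 24.1% of all genes passed, 34 with 1 probe per gene or a robust prior, and 33 with genes on all 14 arrays, where Krtap4-13 was not tested. The number called in 1 tumour against the other 11 was 5, all in T372. It was 2 after quantile normalization, 2 with the second arrays only, 0 at an adjusted p under 0.01 and 2 without T372, both then in T2023. Under the other alternatives it stayed near the number of the main settings, though without T176 the genes called were not all the same. The cause of these changes was not tested, except that the stricter threshold lowers a count by construction. The numbers at least 2-fold above the other 11 ran from 38 to 41 in T372, from 21 to 25 in T2023 and from 11 to 19 in T160. These counts and the fit without T372 were added after the data were seen. No hair gene was 1.5-fold or 3-fold below the reference in all 12 tumours. Each hair gene has 1 probe, so probes taken singly changed nothing. No paired analysis was possible because only T172 and T284 have a second array. The number of arrays limits the precision, T372, T2023 and T160 were each hybridised once, and without spot intensities the signal over background is unknown.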
